A study of Homo sapiens with 6 samples.

Results

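The cytochrome P450 and UDP-glucuronosyltransferase (UGT) genes were examined in HEK293T cells, an established line of human embryonic kidney origin that expresses a viral T antigen, with and without valproic acid (VPA), an inhibitor of class I and IIa histone deacetylases. Members were taken by symbol from the 47470 genes listed in the count files, as CYP or UGT followed by family, subfamily and gene number. Of the 75 symbols that matched, CYP51A1, CYP26A1 and CYP26B1 were left out by name and CYP2D7 as a pseudogene of RefSeq. The remaining 71 members were 52 P450 genes and 19 UGT genes. RNA was sequenced from 3 libraries of untreated cells, labelled wild type, and 3 libraries of cells kept in 1 mM VPA for 1 day, all of the same line. Nothing in the labels says that the 3 libraries of a condition came from separate cultures, so the p-values measure the spread between these libraries, which may be technical.

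P450 enzymes are haem proteins that insert an oxygen atom into their substrates, and they make or break down steroids, bile acids, vitamin D, fatty acids and drugs. Those of the endoplasmic reticulum receive electrons from the reductase POR, and those of the mitochondria from ferredoxin. UGT enzymes join glucuronic acid to such products so that they can be excreted. Both families are best known from the liver, and valproic acid itself is a substrate of UGTs and, to a lesser extent, of P450s. Many members stand in tandem gene clusters that arose by duplication, so their sequences are alike.

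Most members had few or no reads in these cells. Counts on genes totalled 18622267 to 18828495 per library, and the 71 members together took 1557 to 1625 of these in the untreated libraries and 2580 to 2685 in the VPA libraries. Of the 71 members, 29 (40.8%) were at 0 in every library, 19 had 1 to 9 counts over the 6 libraries and 23 had 10 or more. Among all listed genes 44.5% were at 0 in every library. A count of 0 allows a level of up to 0.161 CPM (a count scaled to its library's total), taken as 3 counts of the smallest library, and this limit covers counting error only. Liver markers were also near 0. Of 15 hepatocyte genes 5 were at 0 in every library, among them APOB and HP, and the whole list summed to 0.159 to 0.319 CPM in untreated and 0.482 to 1.07 in VPA-treated cells. The 8 genes taken as markers of the line, such as the filament genes NEFL, NEFM and VIM, were all counted. Of 9 proximal tubule markers the anion transporters SLC22A6 and SLC22A8 were at 0, and the list summed to 48.9 to 55.5 CPM in untreated and 93.9 to 95.1 in VPA-treated cells, mostly from LRP2, and the part of this list in the members' changes was not tested. In RNA from bulk cultures, a change in the number of cells that express a gene and a change in RNA per cell cannot be told apart.

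Of the 71 members 6 were up-regulated and none was down-regulated by VPA. Only 18 were counted well enough to be tested by edgeR (quasi-likelihood), and 6 of the 18 passed an adjusted p of 0.05 and a log2 fold change of 1, against 12% of the 15298 genes tested. CYP3A5 had passed the filter only through its VPA libraries, which left 5 of 17 without it. The share of all tested genes was not reduced in this way. Of the 15298, 1387 were likewise not at the filter's level in every untreated library, so 5 of 17 has no matched share. Of all tested genes averaging less than 50 normalized counts 29.4% were up-regulated, and 2 of the 6 members in that class were. In the class of 50 to 500 normalized counts the share was 16.5% of all genes, and 4 of 12 members. No tested member reached a log2 fold change of -1, at an adjusted or an unadjusted p of 0.05, and DESeq2 also gave 0 in all, against 0.503% of all tested genes. At the adjusted p alone 10 members were higher and 3 lower, against 32.9% and 30.0% of all tested genes. In the same 10 every VPA library was above every untreated one (34.8% of all tested genes), in the same 3 every VPA library was below (31.0%), and in 5 the groups overlapped. The median log2 fold change of the 18 tested members was 0.69, and that of all tested genes was 0.0058. None of the 18 averaged 500 normalized counts or more, and no median was taken of all genes at the members' levels.

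**Figure D1:**
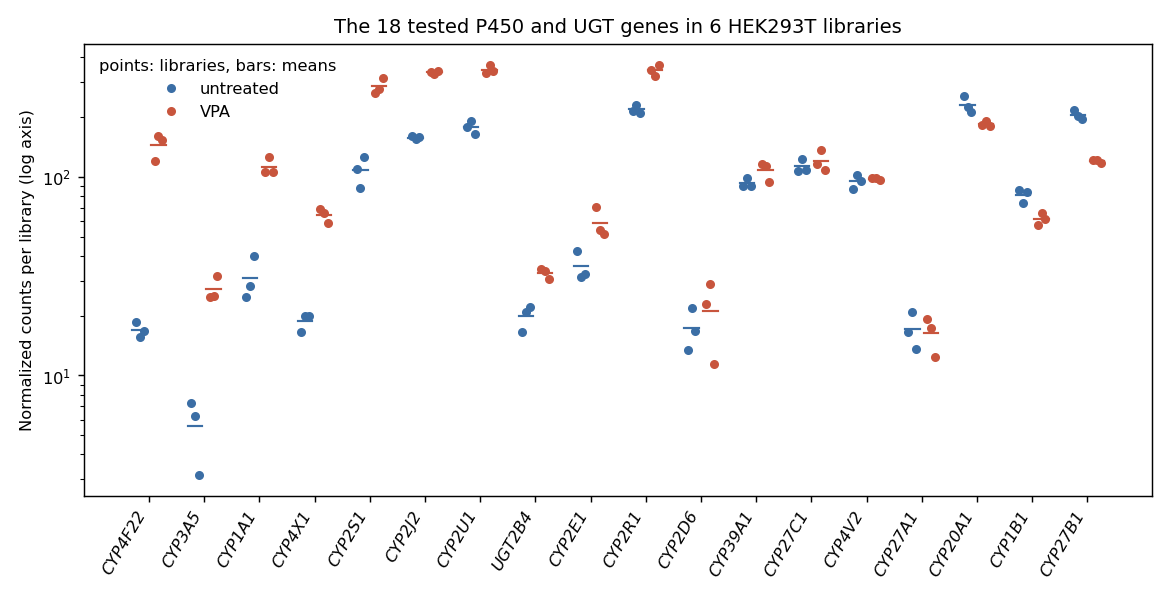
Normalized counts of the 18 tested members in each library on a log axis, with untreated libraries in blue, VPA libraries in red and bars at the means of 3 libraries. From CYP4F22 to CYP2R1, the 10 genes on the left, every VPA library lies above every untreated library, and in the 3 genes on the right every VPA library lies below.

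The 6 up-regulated members were CYP4F22, CYP3A5, CYP1A1, CYP4X1, CYP2S1 and CYP2J2. CYP4F22, which hydroxylates very long fatty acids for the ceramides of the skin barrier, rose most. It lies on chromosome 19 from 15508525 to 15552317 (GRCh38) and had 18.6, 15.7 and 16.8 normalized counts without VPA and 121, 161 and 154 with it. The 2 groups did not overlap, with a log2 fold change of 3.08 ± 0.18 (SE, adjusted p = 2.83e-12, edgeR).

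CYP1A1, the classical target of the aryl hydrocarbon receptor and an oxidiser of polycyclic hydrocarbons, lies on chromosome 15 from 74719542 to 74725528. It had 24.8, 28.3 and 39.9 normalized counts without VPA and 105, 126 and 106 with it. All VPA libraries were above the highest untreated one, with a log2 fold change of 1.86 ± 0.17 (SE, adjusted p = 3.31e-09, edgeR). CYP3A5, a drug-metabolising enzyme of liver and kidney, was the least counted of the 6, with 101 counts over all libraries. Its normalized counts were 7.25, 6.28 and 3.15 without VPA and 24.9, 25.0 and 31.6 with VPA, a log2 fold change of 2.26 ± 0.32 (SE, adjusted p = 3.27e-06, edgeR). It lies on chromosome 7 from 99648194 to 99679996.

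CYP2J2, an epoxygenase of arachidonic acid on chromosome 1 (59893308 to 59969212), was at 160, 155 and 159 normalized counts before treatment and 338, 331 and 344 after it. The change was a log2 fold change of 1.10 ± 0.081 (SE, adjusted p = 1.36e-10, edgeR). When the fold change threshold was made part of the test, 5 members were called in place of 6. CYP2S1, a P450 of epithelia on chromosome 19 (41193219 to 41207539), had 110, 87.9 and 126 normalized counts without and 264, 278 and 315 with VPA, with a log2 fold change of 1.41 ± 0.11 (SE, adjusted p = 4.69e-10, edgeR). CYP4X1, whose known substrates include the lipid anandamide, stands on chromosome 1 from 46961364 to 47055432. It went from 16.6, 19.9 and 19.9 to 69.0, 65.5 and 58.4 normalized counts, a log2 fold change of 1.77 ± 0.19 (SE, adjusted p = 5.30e-08, edgeR).

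**Figure D2:**
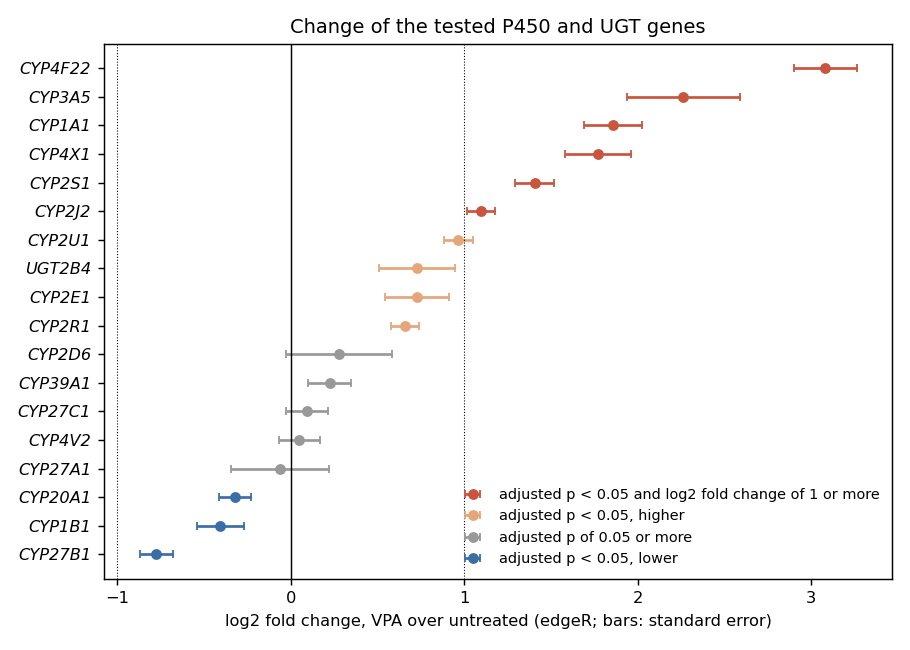
Fitted log2 fold changes of the 18 tested members, VPA over untreated, with bars of 1 standard error and dotted lines at -1 and 1. The fitted changes run from -0.78 for CYP27B1 to 3.08 for CYP4F22, and CYP2U1 at 0.97 lies just under the threshold.

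The promoters of these genes differ in how many CG dinucleotides they hold. A high number is typical of promoters that are open in many tissues, and the sequences before the start of transcription are shown for 5 up-regulated members, which range from few to many. They are from RefSeq on GRCh38.p14, 5′ to 3′ on the strand of the gene, with every CG in capitals. The CYP2J2 stretch lies inside the gene span given above, before a RefSeq start within that span. CYP4X1, the other up-regulated member, has 2 RefSeq starts and is not shown. The stretches are chr15:74725529-74725778 (minus strand) for CYP1A1, chr19:15508275-15508524 (plus) for CYP4F22, chr1:59926774-59927023 (minus) for CYP2J2, chr19:41192969-41193218 (plus) for CYP2S1 and chr7:99679997-99680246 (minus) for CYP3A5.
CYP1A1: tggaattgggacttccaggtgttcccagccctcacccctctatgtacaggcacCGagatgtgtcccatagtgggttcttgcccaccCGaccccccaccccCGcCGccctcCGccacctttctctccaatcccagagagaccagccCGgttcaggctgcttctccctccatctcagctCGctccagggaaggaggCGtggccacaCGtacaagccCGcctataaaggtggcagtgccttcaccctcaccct
CYP4F22: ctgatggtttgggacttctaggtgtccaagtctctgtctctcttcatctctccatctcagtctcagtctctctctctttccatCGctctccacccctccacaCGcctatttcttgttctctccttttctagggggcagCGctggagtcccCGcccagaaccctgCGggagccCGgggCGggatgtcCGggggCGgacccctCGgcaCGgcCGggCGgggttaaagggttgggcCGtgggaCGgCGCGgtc
CYP2J2: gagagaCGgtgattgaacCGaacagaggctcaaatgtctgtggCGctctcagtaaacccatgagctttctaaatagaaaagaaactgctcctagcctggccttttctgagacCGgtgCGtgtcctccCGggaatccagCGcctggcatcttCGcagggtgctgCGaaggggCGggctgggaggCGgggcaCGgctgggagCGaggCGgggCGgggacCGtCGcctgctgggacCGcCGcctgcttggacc
CYP2S1: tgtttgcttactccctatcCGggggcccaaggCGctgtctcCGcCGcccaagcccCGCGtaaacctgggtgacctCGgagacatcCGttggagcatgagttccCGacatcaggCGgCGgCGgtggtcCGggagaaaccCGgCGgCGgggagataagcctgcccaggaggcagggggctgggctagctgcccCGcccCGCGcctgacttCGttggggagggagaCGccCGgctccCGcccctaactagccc
CYP3A5: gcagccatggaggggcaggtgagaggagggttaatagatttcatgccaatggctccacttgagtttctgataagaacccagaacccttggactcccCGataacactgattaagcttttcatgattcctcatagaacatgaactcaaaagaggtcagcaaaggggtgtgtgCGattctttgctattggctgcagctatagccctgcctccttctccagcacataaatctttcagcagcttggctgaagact

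These stretches of 250 bases held 10 CG dinucleotides for CYP1A1, 17 for CYP4F22, 19 for CYP2J2, 23 for CYP2S1 and 2 for CYP3A5. Windows of 300 bases, from 250 before to 50 after the start, were available for 51 of the 71 members. All 71 are RefSeq genes, but the set of windows used did not cover the rest. The tested members CYP1B1, CYP27B1, CYP2D6 and UGT2B4 were among those without a window. For genes with several windows the one with most CG was counted. The 21 members with a window and no count in any library had a median of 3 CG, with 0 to 7. The 16 that were counted but not tested had a median of 2, and 2 of them, CYP26C1 and CYP2W1, had 10 or more. Of the 14 tested members with a window 12 had 10 or more, with a median of 23.5, and the exceptions were CYP3A5 with 2 and CYP2E1 with 7. The 6 up-regulated members had 2 to 29 (median 19) and the other 8 tested members 7 to 36 (median 28.5), so both ranges overlapped. Among all tested genes with a window the median was 28 and 92.3% had 10 or more, and among all genes with a window 58.5% had. The limit of 10 was set after the values were seen. Members of one cluster share ancestry and are not independent, so no test was made.

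**Figure D3:**
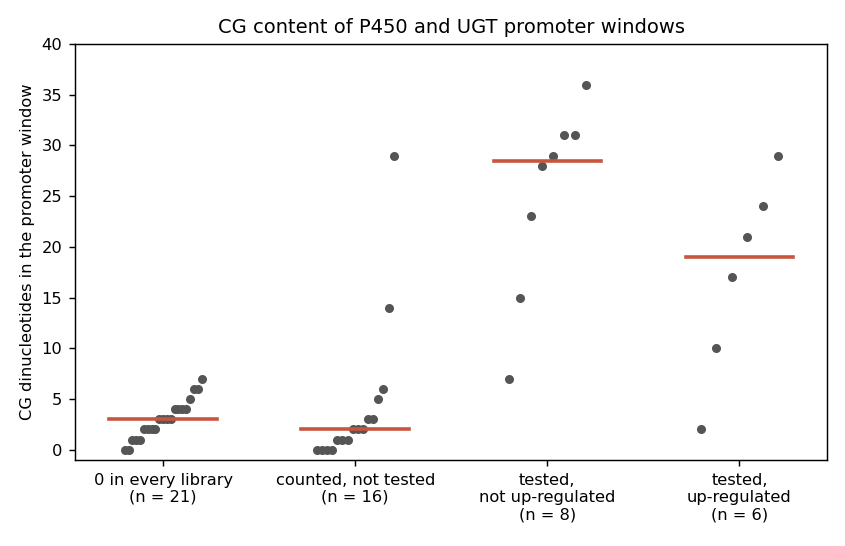
CG dinucleotides per promoter window of 300 bases for the 51 members with a RefSeq window, by how the gene was counted, with red bars at the medians. All 21 members without a count have 7 or fewer, and 12 of the 14 tested members have 10 or more.

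The letters GCGTG, the core that the aryl hydrocarbon receptor binds, were searched on both strands of the same windows and not beyond them. They contain a CG, so the counts are not independent of the one above. The CYP1A1 window held them 1 time, within the stretch shown, as did those of CYP4F22 and CYP2J2, and 1 of the 2 CYP4X1 windows held them 2 times. They were in 4 of the 7 windows of up-regulated members (57.1%), 4 of the 12 of other tested members (33.3%) and 10 of the 45 of untested members (22.2%), together 18 of 64 (28.1%). The share was 48.2% over the windows of all tested genes and 36.5% over all 35116 windows.

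Of the 14 fatty acid and eicosanoid P450s 5 were at 0 in every library and 5 were tested. CYP4F22, CYP4X1 and CYP2J2 were up-regulated, as given above, and these 3 of 5 stand beside a share of 12% of all tested genes, 29.4% of those under 50 normalized counts (the class of CYP4X1) and 16.5% of those at 50 to 500 (the class of the other 4). CYP2U1, a fatty acid hydroxylase on chromosome 4 (107931549 to 107953461), had 178, 191 and 165 normalized counts before treatment and 333, 367 and 343 after it. It rose with a log2 fold change of 0.97 (standard error 0.084, adjusted p = 1.92e-09, edgeR), and 5757 of its 5920 exon bases are free of other genes, the rest lying opposite CYP2U1-AS1. It passed both thresholds with upper quartile or library total scaling and without untreated replicate 2, where its log2 fold change was 1.01. CYP4V2, a fatty acid hydroxylase of the eye and other tissues, was at 87.0, 103 and 95.5 against 98.7, 99.2 and 96.7 normalized counts, with a log2 fold change of 0.048 ± 0.12 (SE, adjusted p = 0.745, edgeR). For this group the median log2 fold change was 1.10.

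Vitamin D enzymes moved in both directions. CYP2R1, the 25-hydroxylase that starts the activation of vitamin D, lies on chromosome 11 from 14877440 to 14892443. It rose from 215, 231 and 210 to 345, 324 and 369 normalized counts, with a log2 fold change of 0.66 ± 0.081 (SE, adjusted p = 3.55e-07, edgeR). CYP27B1, the 1-alpha-hydroxylase that makes the active hormone, is on chromosome 12 from 57762334 to 57767078. It fell from 218, 203 and 196 to 122, 121 and 118 normalized counts, with a log2 fold change of -0.78 ± 0.097 (SE, adjusted p = 4.61e-07, edgeR). Of its 3284 exon bases 3177 are free of other genes, the rest being shared with METTL1. In neither gene did the groups overlap.

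CYP24A1, the 24-hydroxylase that inactivates the hormone and a classical target of the vitamin D receptor, was barely counted without VPA. Its raw counts were 0, 1 and 1 in the untreated group and 6, 14 and 15 after VPA, and it did not pass the filter. The ratio of the group totals was 17.6, with an exact counting interval of 4.53 to 151 (95%). Such intervals, here and below, cover the counting error of pooled reads and not the spread between libraries. Their ratios are scaled by library totals, unlike the normalized counts. Without the filter the log2 fold change of CYP24A1 was 3.77 (adjusted p = 7.47e-07 in edgeR), and DESeq2 gave 3.98 (adjusted p = 0.00298). By comparison 9.56% of the 26353 genes tested without the filter and 10.1% of the 19502 with an adjusted p in DESeq2 were up-regulated, and 0.615% and 0.390% were down-regulated.

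None of the remaining bile acid and sterol P450s was called. CYP39A1, an oxysterol hydroxylase, had 92.9 ± 4.75 normalized counts before treatment and 108 ± 11.9 after it (SD over 3 libraries), with a log2 fold change of 0.22 (adjusted p = 0.118, edgeR). Its adjusted p was 0.0457 with upper quartile scaling and 0.0170 with library totals. CYP27A1, the sterol 27-hydroxylase, was at 17.0 ± 3.67 and 16.3 ± 3.47 normalized counts (SD over 3 libraries), with a log2 fold change of -0.063 ± 0.28 (SE, adjusted p = 0.859, edgeR). CYP46A1, the cholesterol 24-hydroxylase of neurons, had 17 raw counts in untreated and 29 in VPA libraries. CYP7B1, another oxysterol hydroxylase, had 7 and 3. The counting intervals of both ratios contained equality, at 0.913 to 3.33 and 0.0720 to 1.89. CYP7A1 and CYP8B1, of bile acid synthesis, were at 0 in every library. The 4 tested of the 9 genes in this group had a median log2 fold change of 0.080.

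Among the 17 drug and xenobiotic P450s, 5 were tested. CYP1A1 and CYP3A5 were up-regulated, 2 of the 5 against 12% of all tested genes. That share was 29.4% under 50 normalized counts (the class of CYP3A5) and 16.5% at 50 to 500 (the class of CYP1A1). CYP2E1, which oxidises ethanol and other small molecules, lies on chromosome 10 from 133527363 to 133539123. It had 42.4, 31.4 and 32.5 normalized counts without and 70.9, 53.9 and 51.7 with VPA, a log2 fold change of 0.73 ± 0.18 (SE, adjusted p = 0.00167, edgeR). SYCE1 lies opposite part of its exons. CYP1B1, the relative of CYP1A1 that also hydroxylates oestrogens, changed the other way. It went from 85.9, 74.3 and 84.0 to 57.5, 65.5 and 61.3 normalized counts, a log2 fold change of -0.41 ± 0.14 (SE, adjusted p = 0.0134, edgeR). That call was lost with DESeq2 (adjusted p = 0.0917) and with library totals (adjusted p = 0.0896, edgeR), and CYP1B1-AS1, RMDN2 and RMDN2-AS1 overlap its exons. CYP2D6, an enzyme of many antidepressants and opioids, had 17.4 ± 4.29 and 21.1 ± 8.85 normalized counts (SD over 3 libraries), a log2 fold change of 0.28 ± 0.31 (SE, adjusted p = 0.446, edgeR), and its reads can be shared with the near-identical CYP2D7. CYP2C8 had 7 and 5 raw counts. The other 11 had 0 to 8 counts each, and the group's median over the 5 tested genes was 0.73 on the log2 scale.

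The other P450s tested beside CYP2S1 were CYP20A1, whose role is not settled, and CYP27C1. CYP20A1 fell from 256, 224 and 212 to 182, 192 and 180 normalized counts, with a log2 fold change of -0.32 ± 0.092 (SE, adjusted p = 0.00434, edgeR). With library totals as the scaling the adjusted p was 0.0862. CYP27C1, a retinoid desaturase of skin, was at 113 ± 9.02 and 121 ± 14.7 normalized counts (SD over 3 libraries), with a log2 fold change of 0.093 ± 0.12 (SE, adjusted p = 0.514, edgeR).

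The steroid hormone P450s were close to silent. CYP11B1, CYP11B2 and CYP21A2, which act in the adrenal cortex, were at 0 in every library, although reads of CYP21A2 can be set aside because a near-identical pseudogene exists. CYP11A1, the enzyme that cuts the side chain of cholesterol, was at 0 in all untreated libraries and had 1, 5 and 3 raw counts in the VPA libraries. CYP2F1, a lung P450, showed the same pattern with 1, 2 and 5. Both were singled out after their values were seen. Set against 3 counts over the untreated group, the VPA total was 3.02-fold for CYP11A1 and 2.68-fold for CYP2F1, scaled by library totals. These ratios leave out the counting error of the VPA reads and are not lower bounds. Without the filter edgeR gave the 2 genes adjusted p-values of 0.00995 and 0.0170, while DESeq2 gave CYP11A1 0.0616 and CYP2F1 none. They were the 2 members (2.82%) at 0 in every untreated and counted in every VPA library, against 0.779% of all listed genes. Of 6 adrenal cortex markers, NR5A1 among them, 3 were at 0 (MC2R, HSD3B1 and HSD3B2), and the list summed to 0.531 to 0.906 CPM in untreated and 1.34 to 1.72 in VPA-treated cells. NR5A1 had 4, 4 and 4 raw counts without VPA and 13, 21 and 17 with it. INHA overlapped between the groups (11, 3 and 9 against 16, 11 and 7), and STAR did not rise (2, 3 and 0 against 0, 0 and 1). The part of this list in the CYP11A1 counts was not tested.

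Of the 19 UGT genes 14 were at 0 in every library and 1 was tested. UGT2B4, a bile acid and oestrogen glucuronosyltransferase of the liver, lies on chromosome 4 from 69480165 to 69526014. It had 16.6, 20.9 and 22.0 normalized counts before treatment and 34.5, 33.7 and 30.6 after it, and the groups did not overlap. Its log2 fold change was 0.73 (standard error 0.22, adjusted p = 0.00616, edgeR), but the adjusted p was 0.0942 with DESeq2. UGT2A1 had 3 and 8 raw counts, a ratio of 2.68 with a counting interval of 0.644 to 15.7, and it shares exons with UGT2A2. All 9 UGT1A genes, which include the bilirubin enzyme UGT1A1, were at 0. They share their last exons, and between 538 (UGT1A3) and 2878 (UGT1A6) exon bases of each gene belong to no other gene. Reads on the shared exons would be ambiguous for a counter that requires a single gene, so the zeros cover the exon bases of each gene's own.

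In 6 of 9 gene clusters nearly all reads came from 1 member. Members less than 500 kb apart were joined, which put 49 of the 71 in 9 loci. The UGT1A and CYP11B loci had no counts. In the CYP4F locus on chromosome 19, CYP4F22 held 97.3% of the counts of its 6 members, and the other 5 summed to 5 counts without and 9 with VPA. CYP3A5 held 97.1% among the 4 CYP3A genes, and CYP4X1 99.6% among the 5 of the CYP4A, CYP4B and CYP4Z locus. On chromosome 15 CYP1A1 held 97.8%, and its neighbour CYP1A2 had 1 count in all. CYP2S1 held 99.3% of the locus that also holds the CYP2A and CYP2B genes. In the UGT2 locus 91.4% of the counts were on UGT2B4, and the other 9 genes summed to 3 and 12. Of the 18 tested members 6 lay in loci and 12 stood alone. Reads that align to several places are set aside, which can lower the counts of near-identical neighbours.

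**Figure D4:**
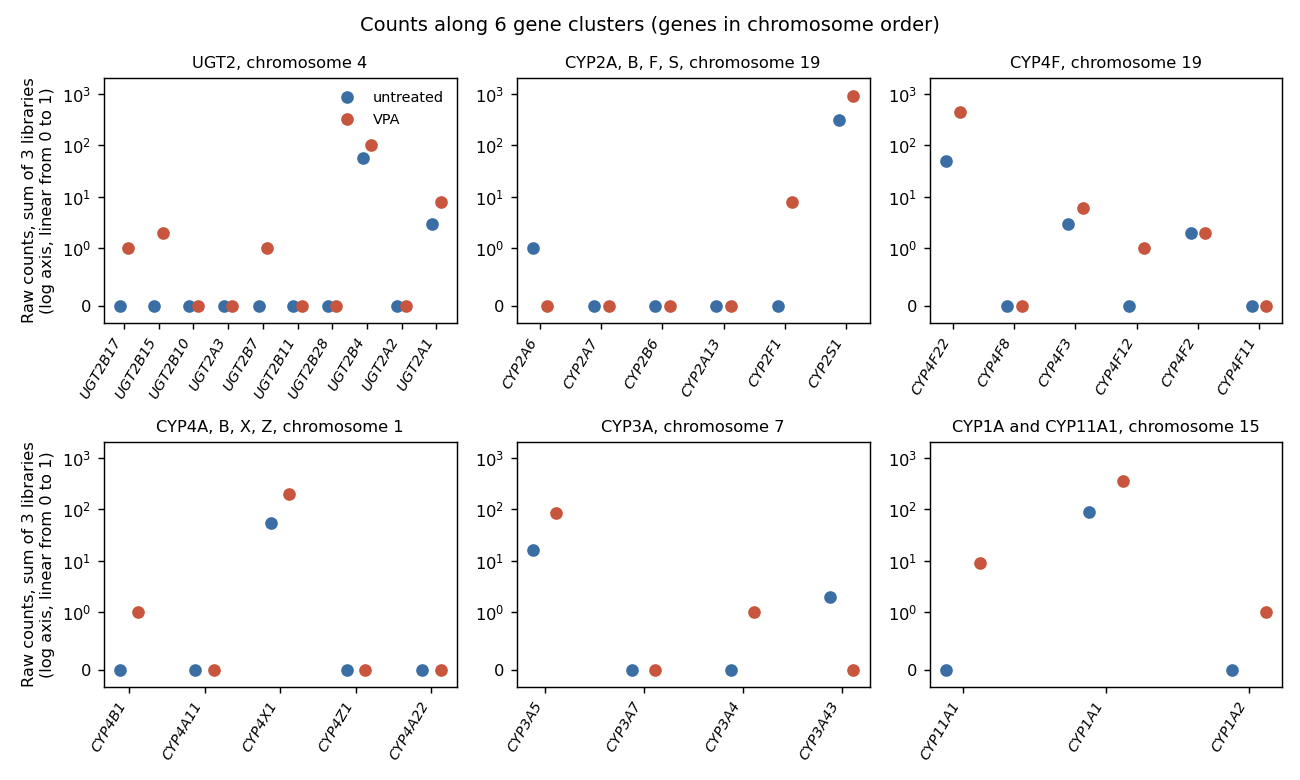
Raw counts summed over 3 libraries for each member of 6 gene clusters, with genes in chromosome order and an axis that is linear from 0 to 1 and logarithmic above. One gene stands out in each panel, from UGT2B4 with 91.4% of the counts of its cluster to CYP4X1 with 99.6%.

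Levels between genes were compared per exon length, in RPKM, the normalized count scaled to exon length and library total. Without VPA CYP27B1 was the highest member at 3.35 RPKM, between 3.19 and 3.55 in the libraries, followed by CYP2J2 at 2.84 and CYP2R1 at 2.60. The untreated libraries of the first 5 genes did not overlap between neighbours, although CYP2S1 (1.73 to 2.48) and CYP2U1 (1.49 to 1.72) nearly met, and those of CYP2U1 overlapped with CYP39A1 (1.55 to 1.69). After VPA the order was led by CYP2J2 at 6.07 RPKM and CYP2S1 at 5.63, whose libraries overlapped, and CYP27B1 was the sixth at 1.96. CYP4F22 moved from rank 15 to rank 5 of the 18 and CYP3A5 was the lowest in both conditions, at 0.030 and 0.148 RPKM. Ranks depend on the length used, that of all merged exons, which is 9815 bases for CYP3A5 and 2345 for CYP2D6. By normalized counts CYP3A5 was also the lowest without VPA (5.56). After VPA it was at 27.2, above CYP2D6 (21.1) and CYP27A1 (16.3). All 18 were below the median tested gene in untreated cells, 4.73 RPKM, and CYP2J2 and CYP2S1 alone were above the median of 4.99 in VPA-treated cells.

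Each VPA library held more detected members than any untreated library, in a design that cannot reach a p of 0.05. With at least 1 count as the limit, 28, 28 and 29 members were seen among untreated and 31, 30 and 33 in the VPA libraries, which differed by 3 on average (p = 0.1 by a two-sided exact permutation test, the lowest value possible with 3 libraries a group). Over all genes the means were 20806 and 22346. In all, 10 members (14.1%) were seen in VPA libraries alone and 4 (5.63%) in untreated libraries alone, against 6.26% and 2.47% of all listed genes. Of the 10, 8 had 1 or 2 counts in total. They were CYP19A1, CYP1A2, CYP3A4, CYP4B1, CYP4F12, UGT2B15, UGT2B17 and UGT2B7. Presence or absence of such a gene was not resolved at this depth.

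The partners of these enzymes were followed in 5 lists of 81 genes, of which 60 were tested, 12 up-regulated and 0 down-regulated, against 12% and 0.503% of all tested genes. Of the 60, 7 had passed the filter only through their VPA libraries. Among these 7 were 6 of the 12 (NR5A1, SULT2A1, SULT2B1, AKR1C1, AKR1C2 and AKR1C3), which leaves 6 of 53. The shares of all tested genes, here and for the lists below, were not reduced in this way. By level, 7 of the 9 partners averaging less than 50 normalized counts were up-regulated (29.4% of all tested genes), 5 of the 23 at 50 to 500 (16.5%) and 0 of the 28 above. The 60 had a median log2 fold change of 0.19, and the 53 had 0.097. No gene of the 60 passed the lower threshold at an unadjusted p of 0.05 either. Of the 7 electron donors 6 were tested and none was called at both thresholds, and CYB5R3 and CYB5B, the most counted, had log2 fold changes of 0.040 and 0.055 (adjusted p = 0.413 and 0.261, edgeR). At the adjusted p alone 2 of the 6 were higher and 0 lower, against 32.9% and 30.0% of all tested genes. The 2 were CYB5A at 0.17 and FDXR at 0.19 (adjusted p = 0.00725 and 0.0135, edgeR). POR, singled out after its values were seen, was at 1696 ± 27.6 and 1691 ± 90.1 normalized counts (SD over 3 libraries), with a log2 fold change of -0.0037 ± 0.047 (SE). The 2 P450 enzymes without a CYP symbol, the prostacyclin synthase PTGIS and the thromboxane synthase TBXAS1, were both up-regulated. PTGIS went from 18.8 ± 3.65 to 55.3 ± 7.88 and TBXAS1 from 49.4 ± 6.29 to 101 ± 5.47 normalized counts (SD over 3 libraries), with log2 fold changes of 1.55 and 1.03 (adjusted p = 1.38e-06 and 1.53e-06, edgeR).

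Of 21 genes for nuclear receptors and the aryl hydrocarbon receptor system 13 were tested. Of the 13, 3 were up-regulated, against 12% of all tested genes. Of the 3, NR5A1 had passed the filter only through VPA, leaving 2 of 12. The vitamin D receptor VDR rose from 234 ± 15.2 to 521 ± 25.3 normalized counts (SD over 3 libraries), a log2 fold change of 1.16 ± 0.074 (SE, adjusted p = 1.28e-11, edgeR). RXRG, a partner of many nuclear receptors, had a log2 fold change of 2.22 (adjusted p = 3.24e-13, edgeR). NR5A1, which drives steroid enzyme genes in the adrenal gland, went from 4.18 ± 0.030 to 16.3 ± 3.89 normalized counts (SD over 3 libraries), with a log2 fold change of 1.93 (adjusted p = 1.72e-04, edgeR). RXRB was lower at -0.47 (adjusted p = 4.61e-08, edgeR), and ARNT, the partner of the aryl hydrocarbon receptor, was at -0.092 (adjusted p = 0.0716, edgeR). The receptor gene AHR itself, singled out after its values were seen, had 220 ± 27.4 and 322 ± 18.4 normalized counts (SD over 3 libraries) and was higher by 0.55 on the log2 scale (adjusted p = 1.46e-05, edgeR). NR1I2 and NR1I3, the drug-sensing receptors of the liver, had 1 and 12 counts over the 6 libraries.

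In the supply of glucuronic acid and other UGTs, 7 of 8 genes were tested. UGT3A2 alone was up-regulated, 1 of the 7 against 12% of all tested genes. It went from 128 ± 8.23 to 317 ± 9.36 normalized counts (SD over 3 libraries), a log2 fold change of 1.31 (adjusted p = 3.02e-11, edgeR). The transporter gene SLC35B1 was lower at -0.15 (adjusted p = 0.00733, edgeR), and the glucuronidase GUSB was at 0.097 (adjusted p = 0.0651, edgeR). Among 43 other enzymes of drug and steroid metabolism 32 were tested and 6 were up-regulated, against 12% of all tested genes. ALDH1A1 was the 1 called among the 26 that passed the filter in untreated cells, and the other 5 had passed through their VPA libraries. ALDH1A1, a retinaldehyde dehydrogenase, went from 23.6 ± 4.58 to 251 ± 4.55 normalized counts (SD over 3 libraries), a log2 fold change of 3.40 (adjusted p = 6.46e-15, edgeR). The steroid sulfotransferases SULT2A1 and SULT2B1 had log2 fold changes of 2.69 and 2.18 (adjusted p = 7.20e-10 and 5.31e-08, edgeR). AKR1C1, AKR1C2 and AKR1C3, reductases of steroids, were up-regulated, with 2.54 for AKR1C2 and 3.44 for AKR1C3 (adjusted p = 2.20e-05 and 4.70e-06, edgeR), from means of 1.39 to 3.47 normalized counts, and their near-identical sequences make the split between them uncertain. GSTP1 and EPHX1, the most counted of the rest, had -0.16 and 0.19 (adjusted p = 0.00205 and 0.00104, edgeR).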

How the data were processed

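RNA-seq libraries were strand-specific mRNA libraries read on DNBSEQ. Reads were cleaned by the authors (SOAPnuke) and mapped to hg38 by STAR (2.7.10b in the submitters' processing notes) and counted with htseq-count (the paper and the notes give different releases, 2.0.1 in the notes). The deposited values are raw counts per gene for 6 libraries. Annotation and strand setting are not given in the sources used here. Summary lines, left out, held 6.80% to 7.69% of reads off genes, 1.97% to 2.10% ambiguous and 2.81% to 2.92% not uniquely placed. Replicates differed beyond sampling noise (chi-square per gene 1.62 to 4.80).

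Tests used edgeR 4.0.16 (R 4.3.3) with filterByExpr (minimum count 10), TMM, a robust quasi-likelihood model of condition, prior count 0.125, Benjamini-Hochberg over 15298 genes. Normalized counts are TMM-scaled to the mean library, and RPKM uses the merged exons of GENCODE 44. All 71 members were matched by symbol to RefSeq, whose coordinates are on GRCh38.p14, and strands and overlaps are from GENCODE. On simulated counts of this comparison edgeR called 198 of 200 changed genes and 1 unchanged over 15048 genes. The alternatives were DESeq2 1.42.0, other scalings, filters and thresholds, a replicate block and leaving out libraries. All tested members, those with 10 or more counts, up-regulated partners (at most the 12 of smallest p) and the 2 most counted others per partner list were named. The members and lists were chosen with earlier results of these data known. Besides the marker lists given above, 10 enterocyte markers summed to 41.2 to 51.0 CPM, nearly all CDX2. The values of 1 member are not reported here on their own.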

Additional observations from a re-analysis of the deposited data

How the results depend on the processing

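The 6 up-regulated members kept their direction and both thresholds under every alternative that was followed for single genes. CYP3A5 was not tested where each library needed 10 counts. With glmTreat, which makes the fold change threshold part of the test, 5 members were called in place of 6. It was not followed for single genes. The number of up-regulated members lay between 5 and 9, and was 6 to 8 with a library left out. No member was down-regulated under any alternative. The number higher at the adjusted p alone was 10, with 10 to 11 when a library was left out and 13 without the filter, which adds CYP24A1, CYP11A1 and CYP2F1. The number lower was 3, but 1 with library totals as the scaling, where the median log2 fold change of all genes was 0.14 in place of 0.0058. Up-regulated partners numbered 7 in place of 12 when each library needed 10 counts, which leaves fewer genes to test, and 11 to 12 with a library left out.

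Over 251 comparisons of single members with an alternative 237 gave the same call at the adjusted p, 4 lost it, 3 gained it and 7 changed sign, all in genes without a call. CYP27A1 (-0.21 to 0.10 with a library left out) was at 0.0016 with upper quartile scaling, 0.067 with library totals and 0.10 or 0.097 without untreated replicate 2 or VPA replicate 3. CYP27C1 (up to 0.16) and CYP2D6 (up to 0.57) were at -0.0079 and -0.014 without VPA replicate 2, and CYP4V2 (up to 0.099) at -0.019 without untreated replicate 1. CYP39A1 gained a call without VPA replicate 3 (adjusted p = 0.0478, edgeR). The difference in detected members was 1.67 at a limit of 3 counts, 2 at 10 counts, 3.33 after thinning to the smallest total, and 2.17 to 3.67 with a library left out.

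With the replicate block 6 members were up-regulated, 10 were higher and 3 lower. Same-numbered libraries had deviations from their group means that correlated at 0.14, 0.021 and 0.080, and other pairs between -0.11 and 0.031, so the numbers were not taken to pair the libraries.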
